A study of Mus musculus with 15 samples.

Results

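Long stretches of histone H3 trimethylated at lysine 36 (H3K36me3) that were called in wild-type (WT) macrophages and not in H3.3 conditional knockout (cKO) macrophages were examined. The H3K36me3 region lists of WT 1, WT 2, cKO 1 and cKO 2 were merged on chromosomes 1 to 19 and X, and a merged region counted as called in a library when at least 1 bp of it was covered there. Of 58499 merged regions, 19819 measured 2 kb or more. Of these, 1031 (5.2%) were called in both WT libraries and in neither cKO library, and they are named lost regions here. The lost regions were chosen by presence of H3K36me3 in these same 4 libraries, so their H3K36me3 values are given as a description without a test.

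The marks were profiled by CUT & RUN, in which an antibody tethers a nuclease to its target on chromatin and the released fragments are sequenced. WT cells were H3f3a fl/fl H3f3b fl/fl without Cre, and cKO cells were H3f3a fl/fl H3f3b fl/fl with LysM cre/cre, a Cre inserted at both alleles of the myeloid gene Lyz2. Both genotypes therefore carried the floxed alleles of the pair of genes that encode the histone variant H3.3, and cKO cells differed from WT at Lyz2 as well. H3.3 itself was profiled through an HA tag inserted at H3f3b in mice of a separate genotype, with no cKO counterpart. All cells were bone marrow-derived macrophages (BMDMs) from mice of 8 to 10 weeks on a C57BL/6 background, of both sexes, cultured for 6 to 8 days with 20% L929-conditioned medium as a source of growth factor. There were 2 libraries per genotype and mark, labelled as biological replicates, and the sex of each library was not labelled. LysM-Cre acts as myeloid cells mature, so deletion occurs in a population that has already begun to differentiate.

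H3K36me3 is placed along transcribed gene bodies, mainly by SETD2, which travels with elongating RNA polymerase II, and it usually becomes denser toward the 3' end. It is read by proteins that restrain initiation inside genes and that act in splicing and repair. Acetylation of lysine 27 (H3K27ac) marks active promoters and enhancers, many of which lie in introns. H3.3 is the replication-independent form of H3 that replaces nucleosomes displaced by transcription. A lost region is therefore a stretch of gene body where the elongation mark was called in WT and not in cKO.

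The sequences of the widest lost regions show what kind of DNA they cover. For the 4 widest, an internal coding exon within the region is printed where one could be taken free of untranslated sequence, with the exon in capitals and 30 bases of intron on either side. For Pcdh7 an intronic stretch is printed with CpG dinucleotides in capitals. All are in mm10, 5' to 3' on the strand of the gene.
Ahrr, exon in the widest lost region, chr13:74215713-74215834, minus strand: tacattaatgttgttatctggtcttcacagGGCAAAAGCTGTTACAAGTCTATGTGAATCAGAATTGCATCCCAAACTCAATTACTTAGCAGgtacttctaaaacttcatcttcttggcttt
F13a1, exon in the second widest lost region, chr13:36877713-36877909, minus strand: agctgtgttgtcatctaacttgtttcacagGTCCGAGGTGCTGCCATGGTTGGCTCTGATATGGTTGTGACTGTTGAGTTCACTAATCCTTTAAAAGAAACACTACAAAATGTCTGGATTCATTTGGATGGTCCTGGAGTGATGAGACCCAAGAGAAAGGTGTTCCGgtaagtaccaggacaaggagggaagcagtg
Pcdh7, intron in the third widest lost region, chr5:57727046-57727245, plus strand: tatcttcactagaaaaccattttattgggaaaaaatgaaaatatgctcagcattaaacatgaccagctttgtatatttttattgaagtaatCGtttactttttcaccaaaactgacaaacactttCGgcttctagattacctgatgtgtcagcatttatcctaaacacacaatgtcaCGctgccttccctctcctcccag
Ahrr, exon in the fourth widest lost region, chr13:74277598-74277839, minus strand: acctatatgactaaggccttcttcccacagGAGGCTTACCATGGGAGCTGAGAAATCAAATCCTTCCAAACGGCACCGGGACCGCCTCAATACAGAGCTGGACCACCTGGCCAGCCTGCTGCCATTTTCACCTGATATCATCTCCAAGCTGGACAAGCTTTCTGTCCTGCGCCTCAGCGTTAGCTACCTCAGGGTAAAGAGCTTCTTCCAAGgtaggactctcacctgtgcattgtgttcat
These stretches are ordinary gene-body DNA. Over all lost regions the median GC content was 43.8% and there were 10.1 CpG per kb, against 43.3% and 9.91 CpG per kb in the 14169 regions of 2 kb or more that were called in all 4 libraries, which are named kept regions here. Among regions of 2 to 4 kb the values were 43.8% and 10.0 for lost and 42.9% and 9.38 for kept regions.

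The libraries differed in ways that bear on the calls. The H3K36me3 libraries held 15.1 and 14.03 M tags (M, 1e+06) in WT and 23.8 and 23.5 M tags in cKO. cKO 1 stood apart, with 19.3% of its tags in regions and 90.6 Mb covered, against 46.5 to 50.2% of tags and 163 to 170 Mb in the other 3. For H3K27ac the WT libraries covered 89.6 and 74.8 Mb and the cKO libraries 46.2 and 61.96 Mb. At the targeted genes, H3K36me3 covered 72.3% and 77.8% of the H3f3a body in WT and 67.9% and 73.0% in cKO. Of the H3f3b body it covered 10.7% and 14.2% in WT and 39.6% and 33.6% in cKO. H3K27ac covered 16.4% and 16.5% of H3f3a in WT and 26.9% and 20.8% in cKO. At H3f3b it covered 23.9% and 24.1% in WT and 55.4% and 73.6% in cKO. The called regions thus gave no check of the deletion, and directions rest on the labels. How complete the deletion was in each cKO library is not labelled. H3K27ac covered 88.4% and 76.9% of Lyz2 in WT and 24.1% and 12.8% in cKO. Of 9 macrophage marker genes 8 carried an H3K36me3 region in each of the 4 libraries. Neutrophil markers (7 genes) and stromal markers (4 genes) carried none in any library, and dendritic markers (4 genes) and lymphocyte markers (5 genes) 0 or 1 per library.

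Lost regions were the narrow end of the long H3K36me3 regions, which follows in part from the rule. Any cKO call within a region removed it from the lost set, and a wide region leaves more room for such a call. Kept regions were also merged over WT and cKO calls, and lost regions over WT calls only. Kept regions had a median width of 7754 bp. The width of lost regions ran from 2000 to 13126 bp with a median of 2643 bp (quartiles 2254.5 and 3362.5 bp). There were 369 of at least 3 kb, 60 of at least 5 kb and 12 of at least 8 kb. Together they spanned 3.13 Mb, which was 39.0% of the length of all lost H3K36me3 regions, although they made up 18.6% of those 5557 by number. Around the width limit nothing separated regions inside from regions outside. The narrowest lost regions measured 2000, 2000 and 2001 bp and the widest ones left out 1998, 1997 and 1997 bp, and there were 251 within 200 bp under the limit and 209 within 200 bp above it.

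For most lost regions, calls covered at least 50% of the length in both WT libraries, and for the others they did not. A lost region is the union of its WT 1 and WT 2 calls, so high coverage in WT follows in part from the rule. The region lists give no height, so the strength of the signal was not tested. WT 1 covered a median of 75.6% of a lost region and WT 2 86.8%, and 705 (68.4%) were at least 50% covered in both. In cKO the nearest H3K36me3 region lay a median of 2.47 kb away. It was within 1 kb for 283 lost regions (27.4%) and within 10 kb for 829 (80.4%), and 46 (4.46%) lay more than 50 kb from any cKO region. Of the 18605 regions of 2 kb or more called in both WT libraries, 5.54% were lost, 3081 were missed by cKO 1 alone and 324 by cKO 2 alone. The count of lost regions was 1340 without cKO 1 and 4023 without cKO 2, so the call turned mainly on absence from cKO 2.

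Nearly all lost regions lay in genes. A protein-coding host gene, the GENCODE M21 gene with the most shared bases, was found for 999 (96.9%), in 754 genes. These were 7.62% of the 9891 genes with an H3K36me3 region in both WT libraries. Most hosts (605) held 1 lost region, 149 held 2 or more and 26 held 4 or more. Of the 32 without a host, 13 lay in other annotated genes such as the lincRNA Gm26936, and 19 in none.

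The hosts with the greatest summed lost length had varied functions. F13a1, which encodes the A subunit of coagulation factor XIII and is a marker of tissue-resident macrophages, held 8 lost regions that summed to 38408 bp. H3K36me3 covered 41.2% and 47.2% of its body in WT 1 and 2 and 6.28% and 6.76% in cKO 1 and 2. The widest of its lost regions, chr13:36868686-36880775, measured 12090 bp at the 3' end of the gene and was covered over 7687 bp in WT 1 and 11834 bp in WT 2. What remained in cKO at F13a1 was a set of short stretches outside the lost regions, many of them nearer to the gene start. In bulk cells, fewer cells that carry the mark and less of it per cell cannot be told apart.

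Ahrr and Ahr, the repressor and the receptor of the aryl hydrocarbon pathway that senses dioxins and tryptophan products, were both empty of H3K36me3 in cKO. Ahrr was covered by 39.3% and 42.3% in WT and 0% in each cKO library. Its 4 lost regions included the widest of all, chr13:74212401-74225526 (13126 bp), of which WT 1 covered 12644 bp and WT 2 all of it. Ahr was covered by 17.0% in each WT library and 0% in each cKO library, with 1 lost region of 6934 bp at chr12:35501197-35508130. Of 8 genes on the aryl hydrocarbon list with H3K36me3 in WT, these 2 were hosts (25%, Wilson 95% interval 7.15 to 59.1%, against 7.62% of all such genes), and the median difference in H3K36me3 coverage over the 8, cKO minus WT, was 0.174 percentage points.

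**Figure D1:**
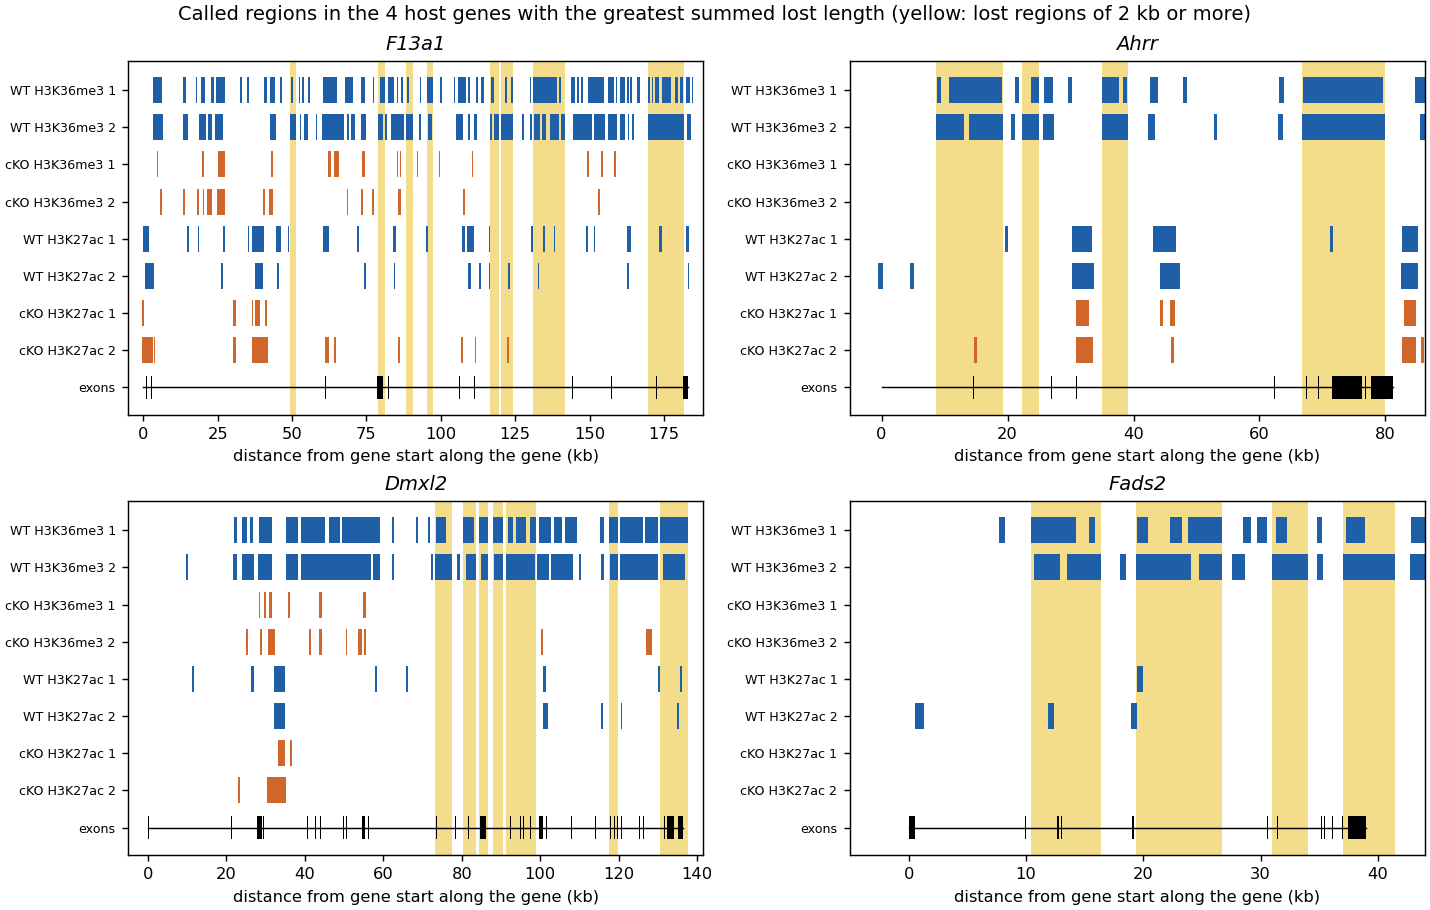
Called H3K36me3 and H3K27ac regions in F13a1, Ahrr, Dmxl2 and Fads2, the 4 host genes with the greatest summed lost length, plotted against distance from the gene start in kb in the direction of transcription. Bars are called regions, blue in WT and orange in cKO, black marks are exons and yellow bands are lost regions of 2 kb or more. Ahrr and Fads2 have no H3K36me3 bar in either cKO library, and short cKO bars remain in F13a1 and Dmxl2 outside the yellow bands, in Dmxl2 mostly upstream of them.

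Atp6v0d2 and Dmxl2, both linked to the vacuolar proton pump that acidifies lysosomes, stood among the first 6 hosts. No list of pump genes was counted, so these are single genes without a share of hosts beside them. Atp6v0d2, a subunit of the pump's membrane sector, was covered by 35.7% and 57.1% in WT and 1.09% and 5.14% in cKO. Dmxl2, a regulator of pump assembly, held 7 lost regions and was covered by 52.6% and 57.1% in WT and 2.54% and 5.66% in cKO. In each gene both cKO values lay far under both WT values, which the ranking by lost length favours.

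Enzymes of lipid and sterol synthesis supplied 7 of the hosts. Of 48 genes on the lipid and sterol list with H3K36me3 in WT, 7 (14.6%, Wilson 95% interval 7.25 to 27.2%) held a lost region, against the 7.62% of all such genes. Fads2, the delta-6 fatty acid desaturase, held 4 that summed to 20748 bp, with 36.6% and 48.7% of the body covered in WT and 0% in cKO. The acyl-CoA synthetases Acsl3 and Acsl1 each held 1 lost region in the middle to late gene body. Acsl3 was covered by 25.8% and 39.4% in WT and 4.08% and 14.1% in cKO, and Acsl1 by 38.8% and 37.3% and by 4.09% and 22.9%. Dhcr7, Acaca and Pparg held 1 each. Over the 48 list genes the median difference in H3K36me3 coverage, cKO minus WT, was -15.8 percentage points, against -8.25 over all 9891 genes.

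Lpin1, a phosphatidate phosphatase on the same list, shows what the rule leaves out. Its H3K36me3 coverage was 55.5% and 55.1% in WT and 2.0% and 13.2% in cKO, and it held no lost region because fragments called in cKO lay within its long WT regions. Hsd17b7, which acts in sterol and steroid synthesis but was not on the list, was covered by 31.2% and 49.3% in WT and 0% in cKO.

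Of all 754 hosts, 81 (10.7%) had no H3K36me3 region in either cKO library, against 278 of the 9137 other genes (3.04%). A gene empty in both cKO libraries enters the hosts by rule once it holds a shared WT region of 2 kb or more. The 2 shares are therefore a description and not a trait found in hosts. Among the 81 emptied hosts, those of 10 kb or longer with the highest WT coverage were Fads2, Ahrr, Hsd17b7, F10, Mks1 and Tyw3. F10, coagulation factor X, was covered by 24.2% and 34.3% in WT, Mks1, a protein of the ciliary transition zone, by 26.0% and 27.5%, and Tyw3, a tRNA-modifying enzyme, by 28.9% and 21.9%. All 3 were at 0% in both cKO libraries. At the other end 594 hosts (78.8%) kept a region in both cKO libraries and 74 kept one in cKO 2 only. In the median host the lost regions amounted to 16.4% of the H3K36me3 length in WT, and in 149 hosts to at least 50%.

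Over all hosts, H3K36me3 covered 30.7% and 32.7% of the gene body in WT and 9.27% and 20.5% in cKO, which is 31.7% ± 1.45 against 14.9% ± 7.91 (SD, n = 2 each). The other 9137 genes were covered by 45.8% and 47.8% in WT and 28.5% and 47.9% in cKO. In cKO 2 the other genes were thus at the WT level, while the hosts were below it. Hosts were chosen for stretches absent from both cKO libraries, so this difference between hosts and other genes follows in part from the rule. Both cKO values lay below both WT values at 663 hosts (87.9%), where 43.3% of all 9891 genes did so, and the rule itself drew on this contrast. No host had both cKO values above both WT values. A gained region, the converse call with both cKO libraries covered and WT empty, of 2 kb or more lay in 11 hosts.

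**Figure D2:**
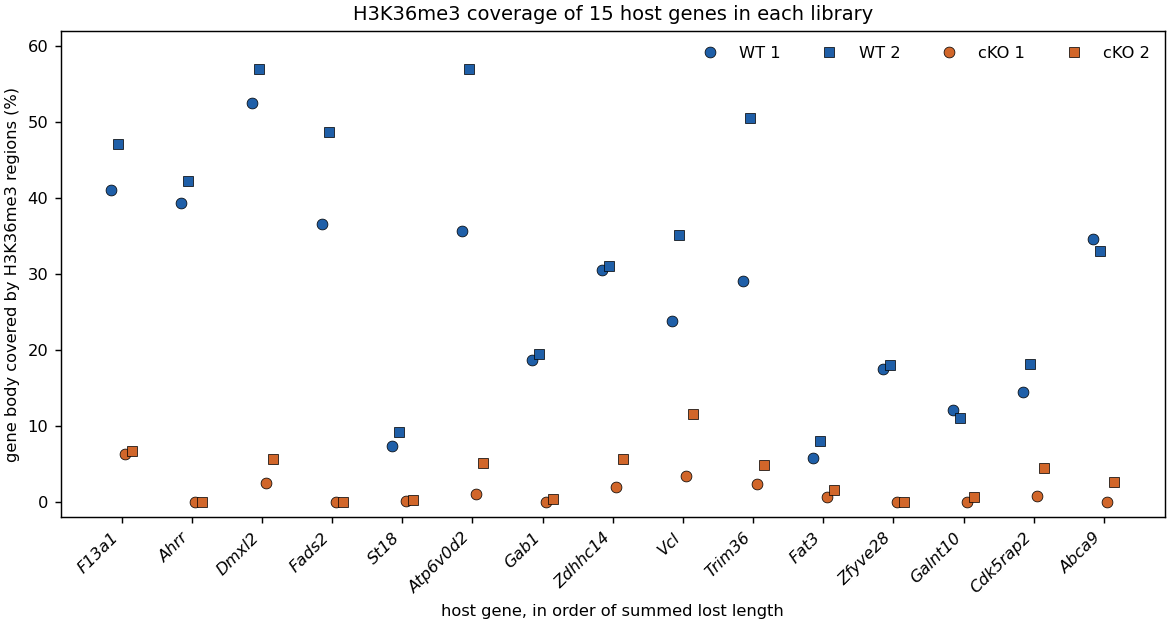
Percent of the gene body covered by H3K36me3 regions in each library for the 15 host genes with the greatest summed lost length, in that order. Blue symbols are WT 1 (circle) and WT 2 (square) and orange symbols cKO 1 (circle) and cKO 2 (square). In all 15 genes both cKO points lie below both WT points, from Dmxl2 at 52.6% and 57.1% in WT to Fat3 at 5.75% and 8.10%.

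Several other hosts among the 15 had little H3K36me3 in cKO. Gab1, a docking protein of growth factor receptors, was covered by 18.8% and 19.4% in WT and 0% and 0.432% in cKO, with 3 lost regions packed into its last part. Vcl, which encodes vinculin of focal adhesions, held 5, with 23.9% and 35.1% in WT and 3.43% and 11.6% in cKO. Zdhhc14, a protein palmitoyltransferase, was covered by 30.5% and 31.1% and by 2.02% and 5.71%. Abca9, an ABC transporter, was covered by 34.6% and 33.1% in WT and 0% and 2.70% in cKO.

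In some hosts, St18, Fat3 and Pcdh7 among them, the mark was thin already in WT. St18, a zinc finger factor, was covered by 7.43% and 9.25% in WT and 0.168% and 0.268% in cKO. Fat3, an atypical cadherin, was covered by 5.75% and 8.10% in WT and 0.629% and 1.53% in cKO. Pcdh7, a protocadherin, was covered by 2.12% and 3.28% in WT and 0.121% and 0% in cKO. Its single lost region of 10722 bp lay at 1.87% of the gene body, near the start.

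Among the genes of small GTPase regulation, 10 of 36 (27.8%) were hosts. These genes are long, with a median of 208 kb, and 28.9% of all genes of 200 kb or more were hosts, so the share is near the background at that length. Agap1, a GTPase-activating protein for Arf, was covered by 17.5% and 21.1% in WT and 1.65% and 5.05% in cKO. Sipa1l2 was covered by 47.5% and 51.7% in WT and 12.3% and 31.0% in cKO, and Dock1, an exchange factor for Rac, by 18.9% and 19.7% and by 4.09% and 13.7%. Of 23 growth factor and insulin signalling genes 4 were hosts (17.4%, Wilson 95% interval 6.98 to 37.1%, against 7.62% of all genes), Fgfr2 included. The median length on this list was 84.9 kb, and 14.03% of all genes of 50 to 100 kb were hosts. The share is thus near the background at that length. Plxnd1, a semaphorin receptor, went from 87.8% and 84.3% to 34.0% and 61.6%. Igf1r, the IGF1 receptor, was covered by 2.70% and 4.11% in WT and 0% in cKO, and Foxo1, a transcription factor restrained by insulin signalling, by 2.37% and 2.52% and 0%. The lost region assigned to Fgfr2 cannot be placed, since that annotation overlaps 30 other protein-coding genes.

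Other lists gave 0 to 2 hosts each, where 7.62% of all genes were hosts. Of 17 genes for writers, erasers and readers of H3K36 methylation, Zmynd11, a reader of the mark on H3.3, and Ash1l, a methyltransferase, were hosts with 1 lost region each. Zmynd11 was covered by 29.4% and 27.7% in WT and 10.7% and 22.7% in cKO, and Ash1l by 65.6% and 68.1% in WT and 30.3% and 62.6% in cKO, so in cKO 2 both stood close to WT. Nucleotide synthesis gave 1 of 23, Dhodh of the pyrimidine pathway. Besides F13a1 the tissue and alternatively activated macrophage list (2 of 16) gave Egr2, a factor of alternative activation, with 36.3% and 36.2% in WT and 0% in cKO. No host was found among 33 interferon genes, which allows a share of up to 9.09%, or among 17 core macrophage genes, which allows up to 17.6%. Both limits lie above the 7.62% of all genes, so a lower share was not detectable with lists of this size. The median difference in H3K36me3 coverage was 7.43 percentage points in the interferon and 5.73 in the core macrophage list, against -8.25 over all genes. In H3K27ac coverage it was 9.17 and -7.37 points, and of the interferon genes 13 had a gained and none a lost H3K27ac region.

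Host genes were long. Their median length was 79.0 kb (quartiles 40.5 and 149 kb) against 24.0 kb (11.6 and 49.4 kb) for the other genes. Of genes under 25 kb 2.08% were hosts, and the share was 5.96% at 25 to 50 kb, 14.03% at 50 to 100 kb, 22.4% at 100 to 200 kb and 28.9% at 200 kb or more. Median lengths of the gene lists ranged from 17.4 kb (interferon) to 208 kb (small GTPase regulation). They were 28.1 kb for aryl hydrocarbon, 28.2 kb for lipid and sterol, 80.5 kb for H3K36 methylation and 84.9 kb for growth factor genes. The 7.62% of all genes is not matched to these lengths, and only the RNA lists below were split by length class.

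The hosts were set beside the genes that the study listed as lower or higher in RNA in cKO BMDMs on day 7. Of 180 lower genes with H3K36me3 in WT 36 (20%, Wilson 95% interval 14.8 to 26.4%) held a lost region, and of 100 higher genes 7 did (7%, 3.43 to 13.7%), where 7.62% of all genes did. Within each length class the share for the lower list stood above that for all genes. It was 6.94% under 25 kb, 17.5% at 25 to 50 kb, 31.6% at 50 to 100 kb and at 100 to 200 kb, and 54.5% of 11 genes at 200 kb or more. The higher list had 1 to 2 hosts per class. Of the genes named above, Ahrr, Ahr, Atp6v0d2, Gab1, Zdhhc14, Abca9 and Plxnd1 were on the lower list. The RNA was measured in libraries not analysed here, and these counts were not tested.

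**Figure D3:**
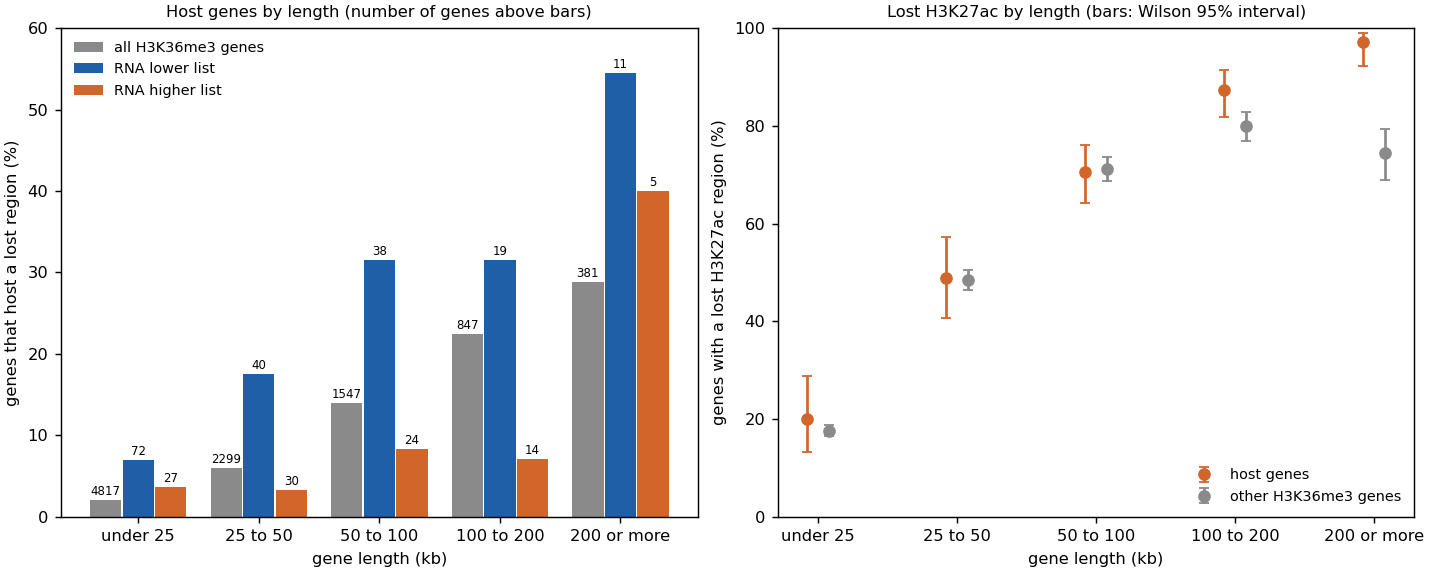
Left, percent of genes with H3K36me3 in both WT libraries that host a lost region, by gene length in kb, for all such genes (grey) and for the lists of genes lower (blue) or higher (orange) in RNA in cKO, with the number of genes above each bar. Right, percent of host genes (orange) and of other genes (grey) with a lost H3K27ac region, by gene length, with Wilson 95% intervals. Host shares climb with length from 2.08% to 28.9%, and the H3K27ac shares of hosts and other genes are 48.9% and 48.4% at 25 to 50 kb and 97.3% and 74.5% at 200 kb or more.

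Lost regions lay mostly in the later part of genes, as the mark itself does. The median midpoint lay at 59.99% of the gene body (quartiles 36.2 and 83.6%), and 620 of 999 (62.1%, Wilson 95% interval 59.0 to 65.0%) lay in the downstream 50%. For kept regions the median was 62.4% and the share 67.5%. For kept regions in the same 754 hosts, of which there were 1866, the median was 59.5% and the share 58.9%, so position within a host was much the same for lost and kept regions. Lost regions of under 2 kb had 53.6% and gained regions of 2 kb or more 49.4% in the downstream 50%.

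Lost regions seldom reached the ends of genes. No lost region spanned a gene start, which allows a share of up to 0.300%, and 43 of 13794 genic kept regions (0.312%) did, so no difference was detectable there. A gene end was spanned by 59 lost regions (5.91%) and by 31.3% of kept regions. Kept regions are wider, and at 2 to 4 kb the shares were 4.89% and 11.4%. Exon bases were present in 59.7% of lost regions, and at 2 to 4 kb in 56.7% of lost and 62.9% of kept regions.

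**Figure D4:**
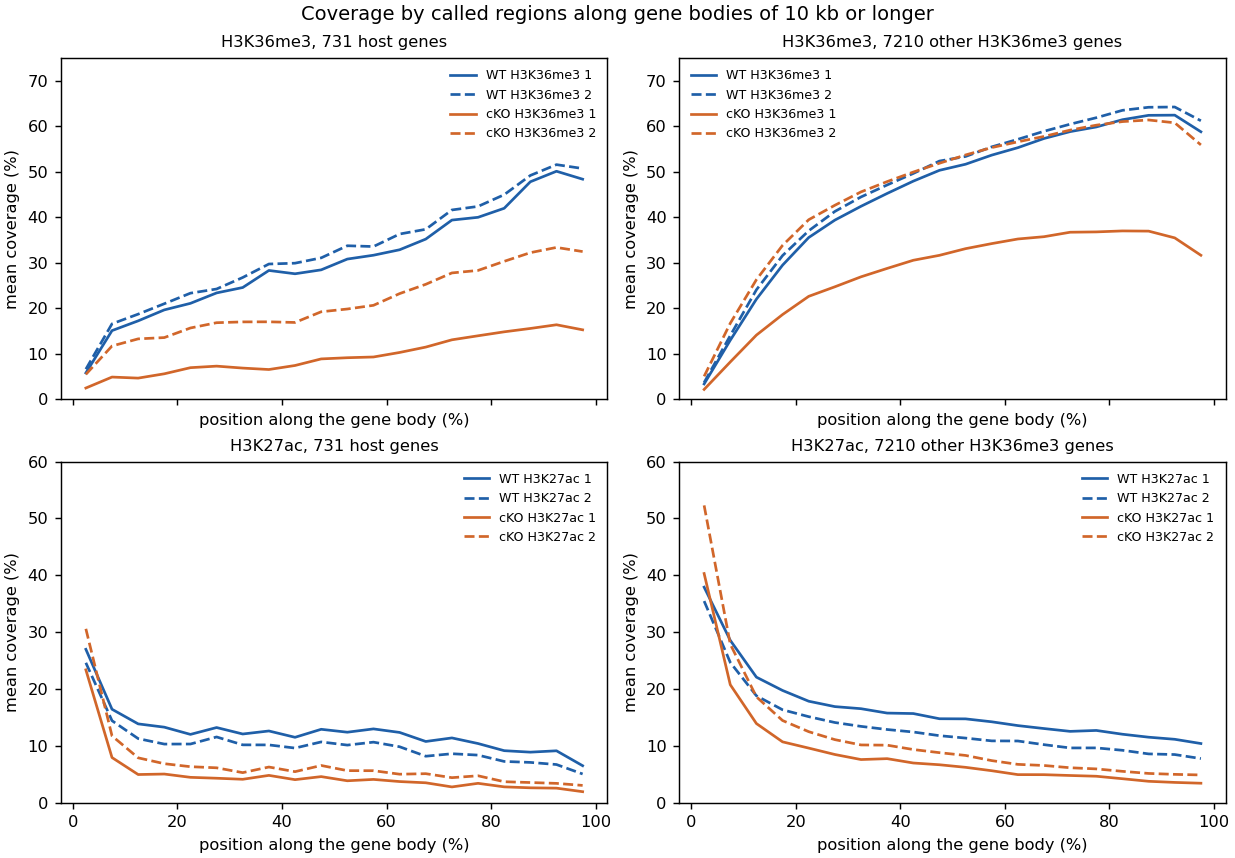
Mean percent of each 5% bin of the gene body covered by called regions, from gene start (0%) to end (100%), for 731 host genes (left) and 7210 other genes (right) of 10 kb or longer. Upper panels show H3K36me3 and lower panels H3K27ac, with WT in blue, cKO in orange, replicate 1 solid and replicate 2 dashed. In hosts at 90 to 95% of the body H3K36me3 covered 50.1% and 51.6% in WT and 16.4% and 33.4% in cKO, while in other genes cKO 2 (60.8%) lay near WT (62.5% and 64.2%). The H3K36me3 libraries chose the hosts, so the lower cKO curves of hosts follow in part from the rule.

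H3K27ac was measured in libraries that did not choose the regions. Over the host gene body and 5 kb upstream, H3K27ac covered 12.2% and 10.1% in WT and 5.36% and 7.48% in cKO, which is 11.1% ± 1.47 against 6.42% ± 1.504 (SD, n = 2 each). The difference of -4.69 percentage points had an exact permutation p of 0.333 (two-sided, 2 against 2 libraries, the smallest possible), so it could not reach 0.05. In the other genes coverage was 16.1% and 13.3% in WT and 10.3% and 14.1% in cKO, a difference of -2.49 points (exact permutation p = 0.667). The ratio of hosts to other genes was 0.756 and 0.757 in WT and 0.520 and 0.531 in cKO, a difference of -0.231 (exact permutation p = 0.333). The WT pair and the cKO pair did not overlap in this ratio. With the other genes weighted to the length classes of the hosts, a setting added after the data were seen, the ratio was 0.798 and 0.799 in WT and 0.682 and 0.724 in cKO, a difference of -0.0960. Within single length classes the genotypes overlapped under 25 kb, at 0.536 and 0.557 in WT and 0.507 and 0.567 in cKO. They also overlapped at 50 to 100 kb, at 0.747 and 0.736 in WT and 0.685 and 0.759 in cKO. In the other classes both cKO ratios lay below both WT ratios.

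Gene starts differed in the other direction. Within 1 kb of the gene start H3K27ac covered 31.0% and 28.4% in hosts in WT and 34.2% and 46.3% in cKO, with cKO 10.6 points above WT (exact permutation p = 0.333). In the other genes the values were 34.3% and 31.9% in WT and 40.6% and 54.5% in cKO. In the middle of the gene the order was the other way round. At 45 to 50% of the body of hosts H3K27ac covered 12.9% and 10.7% in WT and 4.59% and 6.55% in cKO.

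Lost H3K27ac regions, called in both WT and neither cKO library, were found at 513 hosts (68.0%), against 41.1% of all 9891 genes. Gained ones were found at 184 hosts (24.4%), against 17.7%, and 135 hosts had both. Length again ran beside these shares. Under 25 kb 20.0% of hosts and 17.6% of other genes had a lost H3K27ac region, and the shares were 48.9% and 48.4% at 25 to 50 kb, 70.5% and 71.2% at 50 to 100 kb, 87.4% and 80.1% at 100 to 200 kb, and 97.3% and 74.5% at 200 kb or more. Below 200 kb the Wilson intervals of hosts and other genes overlapped in each class, and at 200 kb or more they were 92.3 to 99.1% and 69.0 to 79.4%. H3K27ac coverage of both cKO libraries lay below both WT libraries at 473 hosts (62.7%, background 40.7%) and above them at 51 (6.76%, background 15.7%).

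Few lost H3K27ac regions at hosts overlapped a lost H3K36me3 region, but no share for other H3K27ac regions at hosts was taken. The median lost H3K36me3 region measured 2643 bp and the median host 79.0 kb, so a low share does not set the 2 losses apart. Hosts held 2013 lost H3K27ac regions with a median width of 1028 bp. Of these 97 (4.82%) overlapped a lost H3K36me3 region, 226 (11.2%) lay within 5 kb of one, and the median distance was 32.5 kb. Their positions were spread evenly, with a median at 50.4% of the gene body, and 40 (1.99%) lay within 1 kb of the gene start. Seen from the H3K36me3 side, 97 lost regions (9.41%) overlapped a lost H3K27ac region, against 24.6% of kept regions. A gained H3K27ac region overlapped 9 lost H3K36me3 regions (0.873%), against 4.44% of kept regions. Kept regions are wider, with a median of 7754 bp against 2643 bp, and these shares were not matched for width. Of all 89773 merged H3K27ac regions 14.2% were lost and 3.34% gained. Those are shares of H3K27ac regions and give no background for the shares of H3K36me3 regions.

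Inside the lost regions both cKO libraries had fewer H3K27ac calls than either WT library. An H3K27ac region overlapped 317 and 243 of 1031 lost regions in WT (30.7% and 23.6%) and 98 and 128 in cKO (9.51% and 12.4%). At 2 to 3 kb the shares were 29.8% and 22.2% in WT and 10.9% and 11.9% in cKO, a difference of -14.6 points (exact permutation p = 0.333). Kept regions of that width had 34.2% and 29.8% in WT and 16.4% and 21.2% in cKO, a difference of -13.2 points (exact permutation p = 0.333). cKO stood at 0.439 of WT in lost and 0.588 of WT in kept regions. Between the kept regions of 2 to 4 kb in the hosts (0.470) and all lost regions of that width (0.424) the gap was smaller.

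The hosts with the most lost H3K27ac length kept part of their H3K36me3. At Snx29, a sorting nexin, H3K27ac covered 31.9% and 27.6% in WT and 6.83% and 9.60% in cKO, with 35 lost H3K27ac regions. At Peak1, a pseudokinase of the actin cytoskeleton, it covered 48.6% and 40.6% in WT and 8.42% and 14.97% in cKO, with 21. At Cep128, a centriole protein, it covered 21.5% and 18.2% in WT and 4.43% in each cKO library, with 19. In these 3 genes H3K36me3 was reduced but present, for example 68.2% and 67.9% in WT and 34.8% and 55.2% in cKO at Peak1.

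At both acyl-CoA synthetase genes H3K27ac lay lower in cKO as well. Acsl3 was covered by 28.9% and 34.5% in WT and 6.43% and 7.34% in cKO, and Acsl1 by 19.3% and 15.8% and by 5.70% and 8.13%. Over the 48 lipid and sterol genes the median difference in H3K27ac coverage was -11.0 points, against -1.57 over all genes, and 35 (72.9%) had a lost H3K27ac region, against 41.1% of all genes. Zdhhc14 and Cdk5rap2, a centrosomal protein, belonged to this kind as well, with 11 and 10 lost H3K27ac regions. Cdk5rap2 was covered by 11.3% and 9.30% in WT and 0.315% and 2.20% in cKO.

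At other hosts H3K27ac varied in level and direction. Ahrr was covered by 9.16% and 9.35% in WT and 3.86% and 4.42% in cKO without a lost H3K27ac region, and Ahr by 1.19% and 0% in WT and 0% in cKO. F13a1 had 12.3% and 6.51% in WT and 2.26% and 7.57% in cKO, so the genotypes overlapped, although 6 lost H3K27ac regions were called there. Gab1 likewise overlapped, with 1.70% and 1.36% in WT and 0.748% and 1.60% in cKO. Atp6v0d2 stayed well covered, at 30.8% and 33.1% in WT and 23.6% and 22.7% in cKO. At Dhodh H3K27ac was 4.68% and 4.16% in WT and 7.55% and 11.3% in cKO, with 1 gained region, while H3K36me3 was 24.8% and 25.2% in WT and 0% and 12.3% in cKO.

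The centre of the widest lost H3K27ac region was read for the widest-region hosts that have one, to show the intronic elements concerned. CpG dinucleotides are in capitals, and the plus strand of mm10 is printed.
F13a1, lost H3K27ac region chr13:36939057-36941420, centre chr13:36940089-36940388: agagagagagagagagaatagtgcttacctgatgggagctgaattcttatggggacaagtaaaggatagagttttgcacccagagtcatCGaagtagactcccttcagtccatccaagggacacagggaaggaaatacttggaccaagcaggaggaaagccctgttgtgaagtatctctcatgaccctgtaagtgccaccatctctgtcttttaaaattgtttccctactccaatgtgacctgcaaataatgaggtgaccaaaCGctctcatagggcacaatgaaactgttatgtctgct
Pcdh7, lost H3K27ac region chr5:57754807-57759206, centre chr5:57756857-57757156: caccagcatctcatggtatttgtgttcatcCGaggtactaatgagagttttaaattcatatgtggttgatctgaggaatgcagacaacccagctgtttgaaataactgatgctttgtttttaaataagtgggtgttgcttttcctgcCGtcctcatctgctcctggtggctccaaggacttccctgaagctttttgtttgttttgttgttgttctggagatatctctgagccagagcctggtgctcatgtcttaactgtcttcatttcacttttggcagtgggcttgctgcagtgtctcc
Neither stretch holds the PU.1 motif GAGGAAGT, the AP-1 motif TGANTCA or the C/EBP motif TTGCNNAA, searched on both strands, where a region may hold more than 1 motif. In the central 300 bp of the 2013 lost H3K27ac regions at hosts they were present in 2.88%, 12.97% and 11.7%. Over all 89773 merged H3K27ac regions the shares were 3.48%, 11.7% and 12.9%.

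H3.3-HA was scarce in the lost regions. An H3.3-HA region found in both replicates overlapped 82 of 1031 (7.95%, Wilson 95% interval 6.45 to 9.77%), against 36.7% (35.9 to 37.5%) of kept regions. The share of lost regions was 12.1% without replicate 2 of H3.3-HA, 17.0% with either replicate and 3.10% with at least 50% of the H3.3-HA region inside. Kept regions are wider, and the gap remained within width classes. It was 7.85% (6.04 to 10.2%) against 17.8% (15.9 to 19.8%) at 2 to 3 kb, 7.77% against 23.8% at 3 to 5 kb and 10.0% (4.66 to 20.1%) against 43.1% at 5 kb or more. Kept regions of 2 to 4 kb in the host genes were overlapped in 15.3% (12.4 to 18.6%). All lost regions of that width, those without a host included, were overlapped in 7.90% (6.30 to 9.86%). Gained regions stood at 31.7% (26.0 to 38.1%). Intervals cover counting error only, and H3.3-HA was profiled in 1 genotype, so no comparison over libraries was possible.

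**Figure D5:**
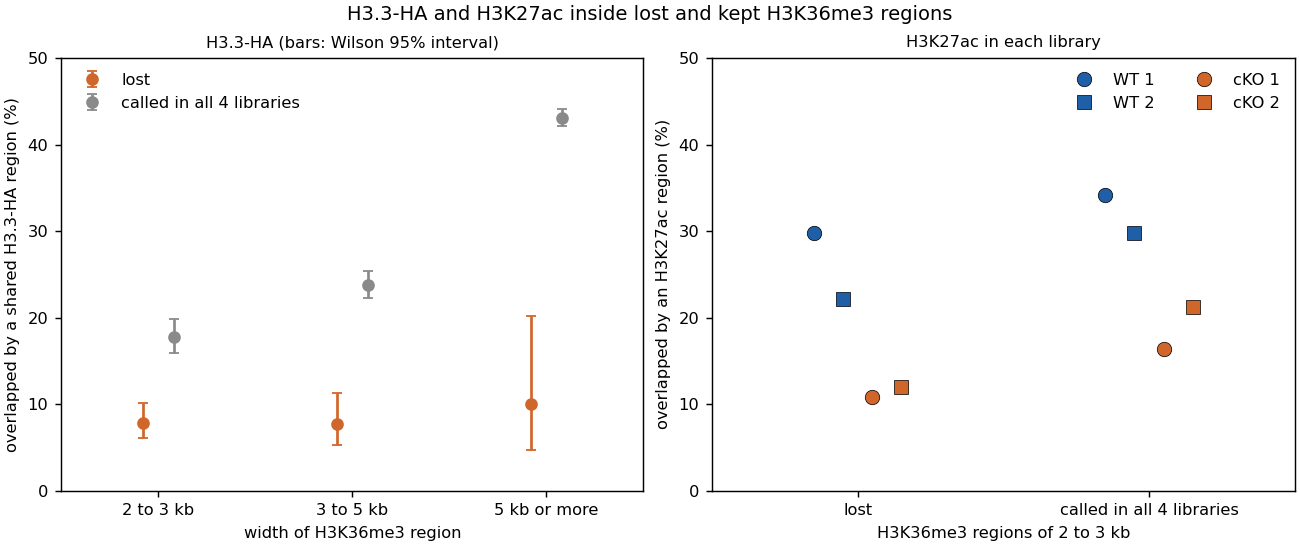
Left, percent of lost (orange) and kept (grey) H3K36me3 regions overlapped by an H3.3-HA region of both replicates, by region width, with Wilson 95% intervals. Right, percent of lost and kept regions of 2 to 3 kb overlapped by an H3K27ac region in each library, with WT in blue and cKO in orange. Lost regions stay between 7.77% and 10.0% for H3.3-HA while kept regions go from 17.8% to 43.1%, and in both region classes the cKO points lie below the WT points for H3K27ac.

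Among the named hosts the lost regions that did overlap a shared H3.3-HA region were few. They included both lost regions of Sipa1l2 and the single ones of Egr2 and Plxnd1. At Atp6v0d2 1 of 3 did so, the 8735 bp region at the 3' end, which also carried H3K27ac in all 4 libraries. None of the lost regions of F13a1, Ahrr, Dmxl2 or Fads2 overlapped one.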

How the data were processed

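CUT & RUN libraries of WT and cKO BMDMs (H3K27ac and H3K36me3, 2 each) and of H3.3-HA BMDMs (2) were analysed, and 5 IgG samples entered only as the authors' background. The authors aligned 25 bp paired-end reads to mm10 with Bowtie2 and called regions per library with HOMER in histone mode. Per the file headers, peaks of 500 bp needed 4-fold enrichment over IgG, and the control differed by genotype. The deposited lists give region positions in bp, with no height, count or p-value per region, so the study's differential test on reads could not be run and a missed region may differ little in signal. Depth is the number of tags in the headers. BED starts were made 1-based. Genes came from GENCODE M21 (21755 protein-coding genes on the chromosomes used) and sequence from RefSeq GRCm38.p6, the build of mm10. Region lists were merged, coverage was summed per gene, and genotypes were set against each other by permuting the 4 library labels exactly (two-sided), in Python 3.11.15 with numpy 2.4.6 and scipy 1.17.1. Wilson 95% intervals cover counting error only. The calling steps were tested on simulated lists. The lost regions, the gene lists, the RNA lists (248 lower and 356 higher symbols, of which 228 and 341 matched a protein-coding gene) and the tests were chosen with earlier results of these data known. Named genes are the 15 hosts with the greatest summed lost length, up to 4 per list, the 6 emptied hosts of at least 10 kb with the highest WT coverage, hosts of the 5 widest regions, the 4 hosts with the most lost H3K27ac length, and Lpin1. Alternatives covered replicates left out, width, overlap, gap and list length, gene window, replicate block and H3.3-HA overlap. The values of 1 named gene are not reported here.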

Additional observations from a re-analysis of the deposited data

How the results depend on the processing

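The number of lost regions was 3273 with a minimum width of 1 kb, 369 with 3 kb and 60 with 5 kb, and it ranged from 666 (without WT 2) to 4023 (without cKO 2) when a replicate was left out. It was 705 when 50% of a region had to be covered in both WT libraries, 1054 with gaps of up to 1 kb closed and 990 with lists of equal length. Without 1 H3.3-HA replicate the share of lost regions with H3.3-HA ranged from 11.4% to 12.1%. It was 3.10% when 50% of the H3.3-HA region had to lie inside, and 17.0% with either replicate. The share of lost regions in the downstream 50% of genes ranged from 60.9% to 65.8% with a replicate left out, and the difference in host H3K36me3 coverage from -22.4 to -11.3 points.

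The difference in host H3K27ac coverage was 10.6 points, the opposite direction, within 1 kb of gene starts. It was -2.96 points with lists of equal length and ranged from -5.76 to -3.63 points with a replicate left out. The ratio of hosts to other genes differed by -0.0960 after weighting for length, by -0.0506 at gene starts, and by -0.237 to -0.226 with a replicate left out. The count of hosts with a lost H3K27ac region ran from 356 to 625, beside backgrounds of 27.1% to 62.1% of all genes. Same-numbered replicates did not deviate together (correlations of 0.0785 for H3K36me3 and -0.0659 for H3K27ac over 9891 genes, from 2 pairs). With the replicate block the differences stayed at -4.69 points and -0.231 for H3K27ac, with an exact sign-flip p of 0.5, and at -16.8 points for H3K36me3. The cause of these shifts was not tested. Settings on replicates left out for H3K36me3 coverage and position, on length weighting and on hosts called without cKO 1 were chosen after seeing the data.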

Other observations

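Chromosome X stood apart from the autosomes. Of 536 regions of 2 kb or more called in both WT libraries on X, 8 (1.49%, Wilson 95% interval 0.758 to 2.92%) were lost, against 1023 of 18069 on the autosomes (5.66%, 5.33 to 6.01%), where single chromosomes ranged from 4.02% to 7.07%. The cKO libraries went opposite ways on X. cKO 1 missed 31.0% of the regions on X and 21.8% of those on the autosomes, while cKO 2 missed 1.49% and 7.45%. On X cKO 2 covered 4.26 Mb with H3K36me3 regions, more than WT 1 (3.16 Mb) and WT 2 (3.52 Mb), and cKO 1 covered 1.62 Mb. The share lost on X equals the share missed by cKO 2, so the low value rests on that library. cKO 1 and cKO 2 carry the same genotype label, so their difference on X is one within a genotype. Both sexes were used in the study and the sex of each library was not labelled, so a role of sex was not tested. Between WT and cKO, sex and genotype cannot be told apart.

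The lost regions without a protein-coding host were led by 5690 bp at the transcribed pseudogene Gm9320 (chr17:70854515-70860204), 4456 bp at AC154486.3 (chr17:22787786-22792241) and 4091 bp at the lincRNA Gm26936 (chr1:137958590-137962680). Reads of pseudogenes can come from near-identical copies, so the first and the second are uncertain.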
